A study of Mus musculus with 3 samples.

Results

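Of the 9941 genes that GENCODE M21 classes as processed pseudogenes, 129 reached at least 1 TPM in each of 3 libraries of cytosolic macrophage RNA. TPM is a share: the level of a gene for its length, scaled so that all genes of a library have a fixed sum. These 129 members are 1.30% of the class, and the annotation holds 55536 genes in all. The levels that chose the members came from the first of 2 quantifications deposited for each library, so these levels are given as a description and are not tested.

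The libraries came from bone marrow-derived macrophages of C57BL/6J mice, cells obtained by culturing marrow until its precursors become macrophages. All of them had been given 100 ng/ml lipid A, the part of bacterial lipopolysaccharide that Toll-like receptor 4 recognises, for 50 min, and RNA of the cytosolic fraction was sequenced after removal of ribosomal RNA. The 3 libraries form 1 group, replicates 1, 2 and 3, with the same donor label, and the labels do not say whether they were separate animals or separate cultures, so a p-value covers the spread between these samples and no more, and that spread may be technical. No unstimulated sample was analysed here, and no value is a response to lipid A.

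A processed pseudogene is a copy of an mRNA that was reverse transcribed and inserted elsewhere in the genome, usually by the machinery of LINE-1 elements. Such copies lack the introns and, as a rule, the promoter of the parent gene, and most decay by mutation. Genes that are highly transcribed in the germ line, ribosomal protein genes above all, have left the most copies. A recent copy has nearly the same letters as its parent's mRNA, so a short read often cannot be placed in 1 of them.

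The members were close copies, as the sequences in GENCODE M21 (mm10) show. The following stretches, all within coding sequence and written 5′ to 3′, are shown because they span the range from identity to clear divergence; capitals mark the letters at which a member and its best protein-coding match differ. Gm12338 is given whole, from start codon to stop codon, and is identical to the coding sequence of Cox7c, a subunit of cytochrome c oxidase. Each other stretch is the gapless run of 90 coding bases with the most differences, so its rate is not that of the whole match.
Gm12338: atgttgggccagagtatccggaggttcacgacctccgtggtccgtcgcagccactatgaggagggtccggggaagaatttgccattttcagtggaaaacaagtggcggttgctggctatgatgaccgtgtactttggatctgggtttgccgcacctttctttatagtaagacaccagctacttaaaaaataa
Gm10263, a copy of the mRNA for the small-subunit ribosomal protein Rps28, differs from it by 1 letter in the 90 shown. Its whole match held 3 differences in 300 aligned positions.
Gm10263: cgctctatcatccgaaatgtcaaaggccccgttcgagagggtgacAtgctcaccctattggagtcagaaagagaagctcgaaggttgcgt
Rps28: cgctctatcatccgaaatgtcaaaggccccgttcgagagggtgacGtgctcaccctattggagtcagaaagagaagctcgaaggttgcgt
Gm12715 is a copy of the mRNA for cytoplasmic gamma-actin, Actg1, and 3 of its 4 differences in 1128 bases fall in 1 stretch of 90.
Gm12715: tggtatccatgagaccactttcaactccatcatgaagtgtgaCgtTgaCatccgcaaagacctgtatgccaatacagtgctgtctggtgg
Actg1: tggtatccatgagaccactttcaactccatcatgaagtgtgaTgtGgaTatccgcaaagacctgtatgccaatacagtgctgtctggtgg
Gm6548, a copy of the mRNA for the translation elongation factor Eef1a1, shows 8 differences in a stretch of 90 bases without gaps. Its whole match held 39 differing or gapped positions of 1166.
Gm6548: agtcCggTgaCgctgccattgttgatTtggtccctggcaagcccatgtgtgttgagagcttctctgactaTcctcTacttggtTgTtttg
Eef1a1: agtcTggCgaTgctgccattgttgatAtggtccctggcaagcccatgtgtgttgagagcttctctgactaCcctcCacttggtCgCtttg
Gm49134, a partial copy of the mRNA for the large-subunit ribosomal protein Rpl7a, shows 6 differences in a stretch of 90 bases without gaps. Its whole match held 31 differing or gapped positions of 260.
Gm49134: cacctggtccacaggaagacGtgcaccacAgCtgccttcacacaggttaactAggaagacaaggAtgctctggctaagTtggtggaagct
Rpl7a: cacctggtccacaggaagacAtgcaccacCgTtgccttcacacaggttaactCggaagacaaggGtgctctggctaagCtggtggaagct
Gm10263 and Gm49134 were chosen for this display after their values were seen.

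A match to a protein-coding transcript over at least 50% of the member at 80% identity or more was found for 126 of the 129 members. It is called the parent here, although the search shows likeness and not descent. Identity was 100% for 46 members and 99% or more for 102, with a median of 99.8% and a lowest value of 83.7%. The 126 members pointed to 111 parents. Eef1a1, Rpl23a and Rpl17 had 3 members each, and 9 other parents had 2 each. Exactly the stretch from the parent's start codon to its stop codon made up the whole annotated length of 55 members, 25 of them without a single difference.

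Structure was that of retrocopies, as the annotation class itself implies. Exon number and the parent's chromosome were not compared with the rest of the class. All members but 1 had a single exon, the exception being Gm10095, while their parents had a median of 6 exons and at least 3. The parent lay on another chromosome for 123 of 126 members. Median length was 480 bases, with a range of 192 to 1941. In 58 members an open reading frame of at least 90% of the parent's coding length was intact. In 57 the longest frame, counted only where the annotated copy held both its start and its stop codon, was under 50%. A short frame was therefore not always a broken one. Gm7536, Rps23-ps1 and Gm10123, identical to their parents over their full length, stood at 23.6%, 10.5% and 18.3%. RefSeq (GRCm38.p6) listed 113 members by symbol, 110 of them in its classes for pseudogenes. The other 3, Ndufb4c, Gm12250 and Rpl34-ps1, are protein-coding genes there.

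Little of the members' sequence was their own. The share of 31-base words of a gene that occur in no other gene's transcripts, counted on both strands, had a median of 3.21% over the members and 85.1% over 9809 other processed pseudogenes. No such word existed in 51 members (39.5%), against 411 others (4.19%). At least 50% of the words were unique in 9 members (6.98%), against 7240 others (73.8%). Read the other way, 11.0% of the 462 processed pseudogenes with no unique word were members, against 0.124% of the 7249 in which at least 50% of words were unique. With words of 100 bases, 48 members still had none of their own. These are properties of the annotation, given without a test because the members were chosen by reads that such words decide.

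**Figure D1:**
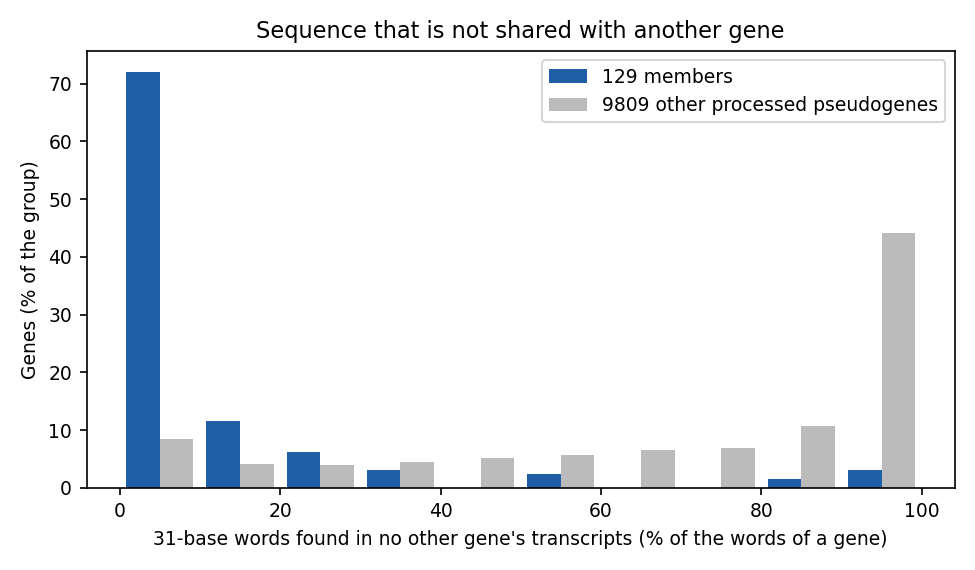
Share of 31-base words that occur in no other gene's transcripts (horizontal axis, % of a gene's words, in steps of 10) for the 129 members (blue) and 9809 other processed pseudogenes (grey), as % of each group on the vertical axis. Most members, 72.1%, stand under 10%, against 8.38% of the others.

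Macrophage markers were present in the libraries (8 of 8 passed the minimum of 1 TPM, with a summed level of 10319 to 14874 TPM), and 1 of 17 markers of T and NK cells, B cells, neutrophils, erythroid cells and fibroblasts reached that level, at a mean of 4.62 TPM. Expected counts on genes, which are estimated reads and need not be whole, summed to 33044910, 36769402 and 36522216 in replicates 1, 2 and 3. A level of 3 counts, the limit that a count of 0 allows, was 0.0908, 0.0816 and 0.0821 CPM, a count scaled to library size, and it covers counting error alone. Protein-coding genes held 38.3%, 26.6% and 34.8% of TPM, lowest in replicate 2, so the order of libraries in TPM can differ from that of counts scaled to library size. The members together held 2399, 1642 and 1932 TPM, which is 86.5%, 84.4% and 82.5% of the TPM of all processed pseudogenes. Over all genes, they held 0.240%, 0.164% and 0.193% of the TPM and 0.0741%, 0.0672% and 0.0750% of the counts.

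Most processed pseudogenes were assigned no reads in the first quantification: 8224 had an expected count of 0 in each library. At least 1 library put 263 of them at 1 TPM or more, and 134 of these missed the minimum in another library. Just inside stood Rpsa-ps10 with 1.41, 1.00 and 2.43 TPM in replicates 1, 2 and 3, Gm15459 with 1.15, 1.01 and 1.85, and Gm5884 with 1.23, 1.01 and 1.35. Just outside stood Gm10052 with 0.990, 1.29 and 1.84 TPM, Gm19241 with 1.86, 0.990 and 1.31, and Gm3362 with 0.970, 1.14 and 1.28. The lowest levels on both sides of the minimum, 0.970 to 1.01 TPM, differed less than the libraries of any 1 of these genes.

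Within the members, levels ran over 2 orders of magnitude, with a mean over the 3 libraries of 1.20 to 156 TPM and a median of 5.16 TPM. Mean levels of 100 TPM or more were reached by 6 members and of 10 TPM or more by 31. The 10 highest held 56.9% of the members' summed mean TPM. The median SD between libraries was 35.5% of the mean. Short copies reach high TPM on few reads, and 13 members had fewer than 10 counts in at least 1 library, while 45 had 100 or more in each.

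Copies of cytosolic ribosomal protein mRNAs, whose products build the ribosome, were the largest group by role, with 49 members from 41 parents and 51.8% of the members' summed TPM. Gm7536, a copy of Rpl27a, was the highest member of all with 236, 114 and 117 TPM in replicates 1, 2 and 3 (156 ± 69.7, SD, n = 3). It lies on chromosome 3 (24333068 to 24333511, plus strand, mm10) opposite a gene on the other strand, Naaladl2. Its level in replicate 1 stood apart from the other 2 libraries. Rpl27a itself had 98.0, 126 and 213 TPM, highest in replicate 3, so the order of the libraries differed between copy and parent. Rpl31-ps8, a copy of the large-subunit gene Rpl31 on chromosome 15 (90764279 to 90764656, minus strand), had 139, 118 and 194 TPM, and Rpl31 had 216, 114 and 225 TPM. Both were highest in replicate 3; both were lowest in replicate 2 in TPM, but scaled to library size the copy was lowest in replicate 1.

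Gm10443, identical to the coding sequence of Rps28, had 183, 159 and 96.3 TPM (146 ± 44.9, SD, n = 3) on chromosome 6 (86334031 to 86334240). Rps28 itself had 814, 531 and 905 TPM, with no overlap between copy and parent. Rps23-ps1, a copy of the small-subunit gene Rps23, had 66.6, 119 and 75.7 TPM and was highest in replicate 2, while Rps23 had 345, 222 and 345 TPM. Scaled to library size, Rps23 was lowest in replicate 1, so in which library the parent was lowest depended on the scale. Gm11518 and Rpl27-ps3 are 2 loci with the same sequence, both identical to their match in Rpl27, and the first quantification gave both the same values, 95.8, 67.7 and 83.9 TPM. Rpl27 had 78.6, 67.6 and 113 TPM, and the ranges of the 3 loci overlapped. Rpl36a-ps2, inside an intron of Ddah1 on the same strand, had 60.8, 58.5 and 43.3 TPM, below Rpl36a (97.9, 94.4 and 157 TPM) in each library.

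The other groups were smaller. Energy metabolism, with 7 members, was led by Gm12338, whose 189, 126 and 91.5 TPM overlapped with the 134, 86.3 and 122 TPM of Cox7c. Ndufb4c, a copy of the complex I subunit gene Ndufb4 and the highest member that RefSeq holds to be coding, had 43.2, 30.2 and 38.4 TPM and a mean of 37.3 TPM, above the mean of 7.99 TPM of Ndufb4. Tpt1-ps3, a copy of the abundant mRNA of translationally controlled tumour protein, led the 44 members with other parents with 168, 89.9 and 142 TPM. Its parent Tpt1 had 1373, 1125 and 1733 TPM, far above the copy. Gm12481, identical to part of the mRNA of Serf2, had 149, 66.2 and 101 TPM, under the 221, 167 and 220 TPM of Serf2.

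Of the 11 members from genes for chromatin and nuclear proteins, Gm8186, a copy of the spliceosome gene Snrpg, was highest with 13.5, 14.1 and 14.0 TPM. Among 5 members from proteasome and ubiquitin genes, Ube2n-ps1, a copy of the gene for a ubiquitin-conjugating enzyme, led with 30.9, 18.5 and 20.9 TPM. The 6 copies of translation factor mRNAs were led by Gm6548 with 13.0, 8.23 and 12.1 TPM, 0.470% of the summed level of copy and parent. Chaperones and isomerases and the actin and tubulin group held 2 members each, the higher ones being Gm10123, from the cyclophilin A gene Ppia (40.9, 38.8 and 53.0 TPM), and Gm12715 (27.8, 17.9 and 20.9 TPM). Rps16-ps2, a further ribosomal copy, had 54.3, 28.5 and 33.2 TPM. Mpc1-ps, from the gene of the mitochondrial pyruvate carrier, had 27.9, 25.1 and 25.7 TPM, nearly level across the libraries.

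**Figure D2:**
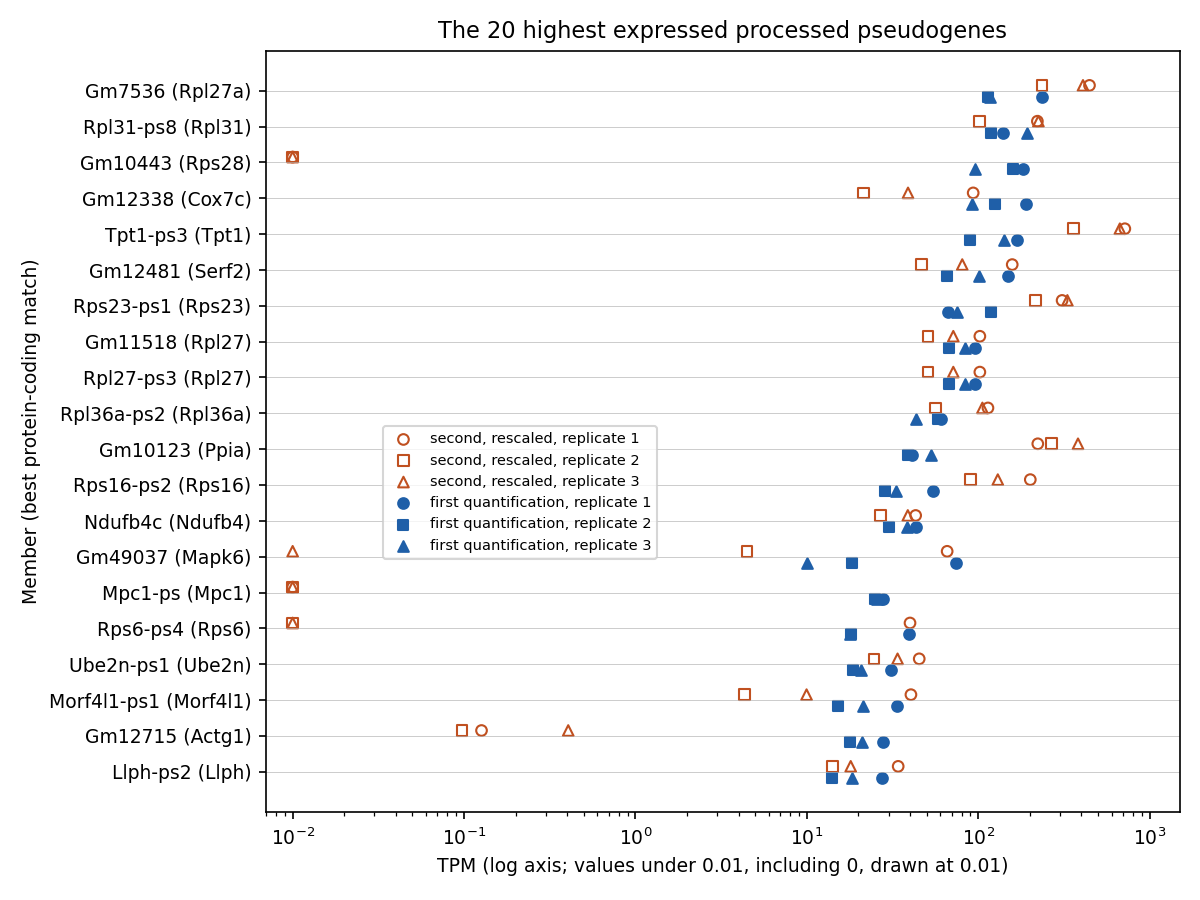
TPM of the 20 highest members on a log axis, with the parent in brackets, in the second quantification after rescaling (open orange) and in the first (filled blue), 1 symbol per replicate. Gm10443 and Mpc1-ps are at 0 in each library of the second quantification and far from it in the first, while Tpt1-ps3 and Gm10123 stand higher in the second.

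Most parents were themselves abundant mRNAs. Their median mean level was 137 TPM, against 9.40 TPM over the 9128 protein-coding genes that passed the same minimum. A mean of 100 TPM was reached by 56.8% of parents, against 5.83% of those genes. The minimum was passed in each library by 108 of the 111 parents, and the lowest parent mean was 0.0133 TPM. These levels are a description, because members were chosen by reads that a near-identical parent can share. Parents of the other processed pseudogenes were not searched. A member made up a median of 4.59% of the summed TPM of member and parent, and under 10% in 84 of 126 members. Mean levels above the parent's were found for 10 members: Gm7536, Gm12338, Ndufb4c, Llph-ps2, Gm19253, Mrpl23-ps1, Gm8186, Gm10557, Bambi-ps1 and Gm7334, listed in full after their values were seen. In each library without exception this held for 6 of them. Across the 126 pairs the level of a member followed that of its parent weakly, with Spearman's rho of 0.0953, a description over pairs that share the libraries.

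**Figure D3:**
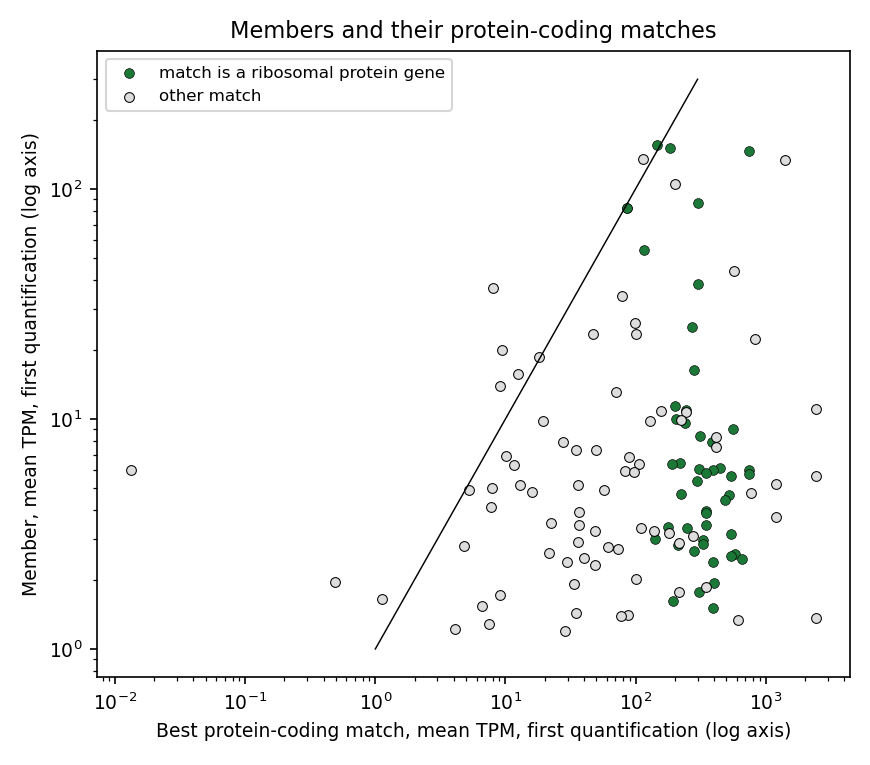
Mean TPM over 3 libraries in the first quantification of each member (vertical, log axis) against its parent (horizontal, log axis), with members of ribosomal protein parents in green and a line at equal levels. The 10 members above the line include Ndufb4c at 37.3 TPM against 7.99 TPM of its parent.

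A few members had sequence and reads of their own. The first quantification carries a posterior SD of each count, the uncertainty of read assignment within a library, and it was a median of 9.45% of the count over the members and 0 over the 9128 protein-coding genes. An SD of 10% or more applied to 62 members (48.1%), against 0.548% of those protein-coding genes. It was under 1% in 10 members. The deposited interval of TPM stayed at 1 TPM or above in each library for 83 members, and for 46 its lower bound went under 1 TPM in at least 1 library; the level of that interval is not given in the sources used here.

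Gm12250 was the clearest locus of this kind. It lies on chromosome 11 (58187739 to 58189012) and had no protein-coding match under the search rule. RefSeq gives it the synonym Irgb10, an interferon-inducible GTPase that acts in defence against bacteria inside cells. All of its 31-base words were unique, and its longest open reading frame had 417 codons. Counts were 450, 417 and 580 and levels 10.1, 6.26 and 10.9 TPM in replicates 1, 2 and 3, lowest in replicate 2. Gm17147, also without a match and with unique words only, had 43, 38 and 34 counts. Gm17084, the last member without a match, overlaps an exon of the kinase gene Ripk1 on the same strand, none of its words were unique, and its 7.23, 6.28 and 5.87 TPM cannot be told apart from those of Ripk1.

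Gm19253, which is 94.1% identical to the mRNA of the mitochondrial protein Mrps36 and was picked out after its values were seen, had 86.6% unique words and 25.7, 12.2 and 17.9 TPM, overlapping in range with its parent. Gm6548 had 53.3% unique words and 519, 491 and 578 counts, with a posterior SD of 0.0346% of the count. Eef1a1, at 2420 TPM, was the highest parent. Gm49134 was clearly divergent too, but rested on only 4, 6 and 6 counts.

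Position added a second kind of sharing. On the same strand, 5 members overlapped an exon of another gene, which was protein-coding for 2 of them, and 18 more lay inside an intron. A further 28 lay opposite a gene on the other strand, and 78 overlapped no other gene. The strand setting of the quantifications is not given in the sources used here, so reads of a member and of a gene on the opposite strand cannot be told apart.

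The second quantification was made from the read files directly rather than from alignments to the transcriptome, and it described the same libraries differently. As deposited, 39 of the 129 members reached 1 TPM in each library there, against 74.7% of all genes that did so in the first quantification. Its TPM were rescaled within each library so that protein-coding genes had the same sum in both, by factors of 2.18, 2.70 and 4.39. After this, 52 members reached 1 TPM, against 98.3% of all such genes. A total of 94 processed pseudogenes reached it, so that the shared 52 were 55.3% of that list and 40.3% of the members. Because members were chosen for a high first estimate, a lower second one is partly fixed by the choice.

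The median log2 ratio of the second over the first quantification, with 0.1 TPM added to both, was -1.02, -2.25 and -2.05 over the members in replicates 1, 2 and 3 (-1.77 ± 0.66, SD, n = 3). Over all 9570 genes that passed the minimum it was 0.00 (SD 0.01). More than 2-fold lower in each library were 61 members (47.3%), where 1.45% of all genes were so, and more than 2-fold higher were 10 members (7.75%), where 0.439% were. A value of 0 in each library was listed for 14 members. The members' share of these calls is a description, since the first estimate stands in both the rule and the ratio.

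The sum over the members was less unlike than its parts, at 4039, 2100 and 3495 TPM in the second quantification after rescaling and 2399, 1642 and 1932 TPM in the first. Single copies differed far more. Gm10443 had an estimated count of 0 in each library of the second quantification, and so had Mpc1-ps, whose first estimate differed little between libraries. Gm12715 was at 0.126, 0.0971 and 0.405 TPM in the second, against 27.8, 17.9 and 20.9 TPM in the first, without overlap. Gm7964, a copy of the gene for the RNA-binding protein Hnrnpk, was at 0.0901, 0.0231 and 0.0307 TPM against 10.4, 9.04 and 10.1 TPM. Gm12671, identical to part of the glycolytic gene Gapdh, had less than 1 estimated read in each library of the second quantification, against 352, 118 and 381 in the first. Another locus, Gm10359, has the same sequence as Gm12671, which had no unique word. The posterior SD of the Gm12671 count in the first quantification was 44.2% of the count.

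Other copies were higher in the second quantification. Rpl28-ps1, identical to the large-subunit gene Rpl28, had 270, 156 and 289 TPM in the second, against 6.21, 4.28 and 13.3 TPM in the first, a log2 ratio of 5.0 ± 0.51 (SD, n = 3). Gm4332, a copy of the small-subunit gene Rps20, had 45.6, 44.7 and 116 TPM against 5.68, 5.36 and 8.24 TPM. Gm10123 had 223, 268 and 382 TPM against 40.9, 38.8 and 53.0 TPM. In each of these the ranges did not overlap. Gm10182, from the gene of the nucleosome-binding protein Hmgn2, had a log2 ratio of 2.34 ± 0.36, and Tpt1-ps3 one of 2.11 ± 0.12 (SD, n = 3 each).

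The quantifications were also set side by side by the share of unique words. Of the 9 members with at least 50% unique words, 8 reached 1 TPM in each library of the second quantification after rescaling, with a median log2 ratio of 0.59 and a range of -2.62 to 1.63. Among them Gm14328 was more than 2-fold lower in each library of the second quantification and Gm19253 more than 2-fold higher. Of the 51 members with no unique word 26 did so, and their ratios ran widest, from -10.46 to 5.0 with a median of -0.62. For 42 members with under 10% unique words it was 12, with a median of -2.95. Of the 27 members with 10% to under 50%, 6 reached it, with a median of -3.62. The lowest medians thus belonged to the classes with some unique words but under 50%, and across all members Spearman's rho between unique words and the ratio was -0.0800. In the class with the most unique words, Gm6548 was at 13.5, 8.10 and 12.1 TPM in the second and 13.0, 8.23 and 12.1 TPM in the first. Gm12250 was at 12.0, 8.34 and 14.0 TPM against 10.1, 6.26 and 10.9 TPM, with replicate 2 lowest in both.

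**Figure D4:**
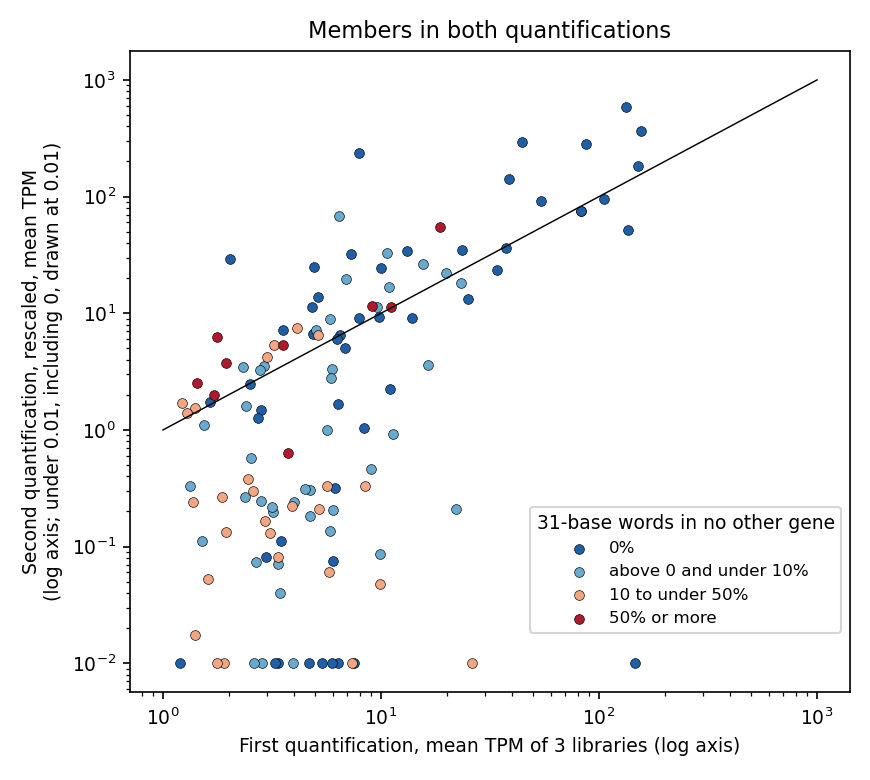
Mean TPM over 3 libraries of the 129 members in the second quantification after rescaling (vertical, log axis) against the first (horizontal, log axis), coloured by the share of unique 31-base words, with a line at equal levels. Of the 9 members with 50% or more unique words 8 lie at 1 TPM or more on both axes, while members with none spread from 0 to far above the line.

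By role, copies of ribosomal protein mRNAs had a median log2 ratio of -3.50, and 12 of 49 reached 1 TPM in each library of the second quantification after rescaling. Energy metabolism stood at -3.62, with 2 of 7 reaching it. Proteasome and ubiquitin genes stood at -0.07, with 3 of 5, and chromatin and nuclear proteins at -0.62, with 6 of 11. The groups were not tested against each other.

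Processed pseudogenes outside the members led the second quantification. Gm12895 and Gm12896, both on chromosome 4 with a span of 226 bases, were at 0 in each library of the first quantification and held 180014, 197653 and 73801 (Gm12896) and 180014, 197653 and 73736 (Gm12895) deposited TPM in the second. These are shares of 18.0%, 19.8% and 7.38% of all TPM for Gm12896, and the rescaling above takes them out of the comparison. Only 1.02% of the 31-base words of either were unique. Among processed pseudogenes outside the members, Rps12l1 came next, with 120, 0 and 0 deposited TPM in the second. It had 38.5, 22.5 and 0 TPM in the first, so it was present in replicate 1 of both and missing from replicate 3.

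The spread between the 3 libraries was the comparison the design allowed a test for. Of 116 members with enough counts, 10 varied between libraries beyond the spread of genes of their level (edgeR goodness-of-fit test, Benjamini-Hochberg adjusted over 12231 genes), which is 8.62% where 1.66% of all genes tested were called. At an unadjusted p under 0.05 there were 34 members (29.3%), against 6.42% of all genes. Expected counts of near-identical genes also carry the error of read assignment, which the test does not model. The minimum of 1 TPM in each library limits how far members near it could vary.

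Gm49037 had the smallest adjusted p. It is identical to part of the mRNA of the atypical MAP kinase gene Mapk6 and lies in an intron of Mapk8 on the same strand. Its log2 CPM, the log2 of counts scaled to library size with a prior count of 0.5, was 3.92, 2.42 and 1.35 in replicates 1, 2 and 3 (edgeR adjusted p = 6.0e-09), highest in replicate 1. Mapk6 stayed at 8.63, 8.67 and 8.71. The second quantification also had Gm49037 highest in replicate 1, with 65.9, 4.49 and 0 TPM after rescaling. This did not hold for every called member.

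Rps23-ps1 stood at 4.08, 5.42 and 4.52 on this scale (edgeR adjusted p = 8.3e-06), highest in replicate 2, while Rps23 had 7.52, 7.74 and 8.02. In TPM of the first quantification Rps23-ps1 was also highest in replicate 2, with 66.6, 119 and 75.7 TPM. In the second quantification it was not highest there, with 309, 215 and 331 TPM after rescaling and 142, 79.6 and 75.4 TPM as deposited. Its lowest library in the second depended on the scale, replicate 2 after rescaling and replicate 3 as deposited. Gm12671 had 3.41, 1.73 and 3.36 (edgeR adjusted p = 0.00054), lowest in replicate 2. Its reads cannot be told apart from those of Gm10359, which has the same sequence. Gm15387, a copy of the gene of the chromatin protein Hmgb1, had 2.03, 3.71 and 3.11 (edgeR adjusted p = 0.0015), lowest in replicate 1. Different libraries thus stood apart for different copies. Gm10698, from the gene of the secretory-pathway protein Tmed2, had 0.91, 0.89 and 2.76 (edgeR adjusted p = 0.0016), highest in replicate 3. Gm10288, from the large-subunit gene Rpl11, had 1.24, 3.02 and 2.62 (edgeR adjusted p = 0.0077), lowest in replicate 1, whereas its 1.24, 0.600 and 0.931 TPM in the second quantification after rescaling were highest there. Rps6-ps4 had 4.72, 4.07 and 3.73 (edgeR adjusted p = 0.028) and Gm12918, from Rpl13, had 0.60, 1.37 and 2.50 (edgeR adjusted p = 0.030), so that their highest libraries were replicates 1 and 3. Gm10095 and Rps10-ps2 were the other two called.

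**Figure D5:**
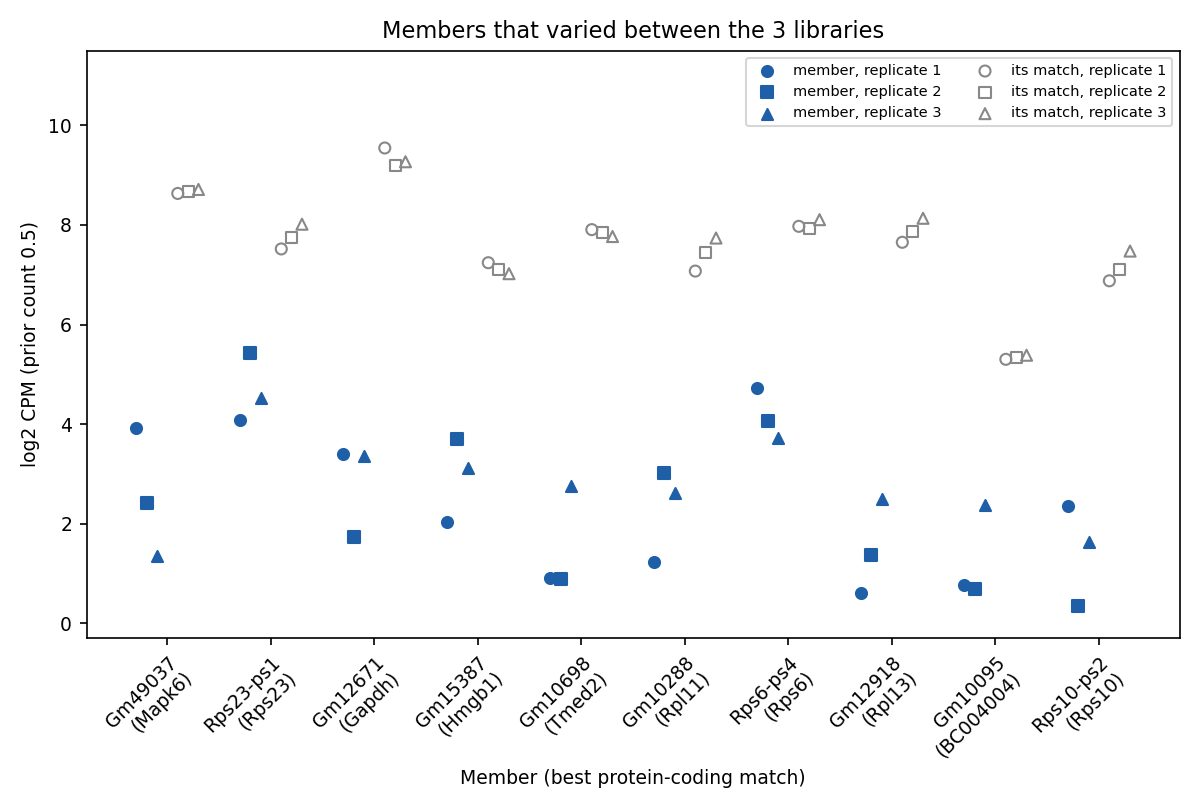
log2 CPM in replicates 1, 2 and 3 of the 10 members that varied between libraries (filled blue), ordered by adjusted p, and of their parents (open grey), 1 symbol per replicate. Gm49037 runs from 1.35 to 3.92 while its parent Mapk6 stays between 8.63 and 8.71.

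None of the 10 parents was called in the same edgeR goodness-of-fit test, and of all 110 parents tested 4 were. These included Rpl27a and Rpl36a (edgeR adjusted p = 0.0021 and 0.032), whose copies Gm7536 and Rpl36a-ps2 were not called. When the counts of each member were added to those of its parent, a step chosen after seeing the data, 0 of the families of the 10 called members were called and 2 of 111 families in all. A member was a median of 4.59% of the summed TPM of the pair, so the sum mostly follows the parent. As none of the 10 parents was called alone, this step cannot tell how reads were divided between copy and parent. The highest library was the same in member and parent for 41 of 112 pairs with log2 CPM for both. Over all 12231 genes tested, 36.8%, 31.2% and 32.0% were highest in replicates 1, 2 and 3. Unlinked pairs would match at close to these shares, and the 41 of 112 was not tested against them.

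None of the 10 calls remained in all 3 fits that left out 1 library. A call that rests on 1 library standing apart is likely to be lost when that library is left out. With only 3 libraries this count therefore says little about how firm a call is. Without replicate 1, 4 of the 10 remained called (Rps23-ps1, Gm12671, Gm10698 and Gm10095), and without replicate 2, 4 remained (Gm49037, Gm10698, Rps6-ps4 and Gm12918). Without replicate 3, 6 remained (Gm49037, Rps23-ps1, Gm12671, Gm15387, Gm10288 and Rps10-ps2). With the estimated counts of the second quantification only 3 of the 10 had enough counts for the test, and 1 of them was called.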

How the data were processed

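RNA was measured in 3 libraries of 1 group, described at the start. The authors deposited, per the notes with each library, expected counts, TPM and, as scores, interval bounds of TPM and posterior SD of counts per gene (first quantification, from transcriptome alignments) and estimated counts and TPM per transcript (second, from read files), on mm10 with GENCODE M21. The layouts are those of RSEM and kallisto; the sources used here give no tool, version, read length or strand setting. Transcripts of the second were summed per gene. All 55536 gene identifiers matched GENCODE M21.

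Members and lists were chosen with earlier results of these data known. Named were the 10 highest members, the 5 highest and 5 lowest ratios, the 8 smallest adjusted p, 3 genes on each side of the minimum, the 3 highest other processed pseudogenes of the second quantification, the highest member of each role group of 3 or more and up to 10 members without a Gm symbol; other names were chosen after seeing values.

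Parents were found with blastn 2.17.0. Rounded expected counts were fitted with edgeR 4.0.16 in R 4.3.3 (filterByExpr, TMM, trended dispersion, threshold 0.05). On simulated counts of 12231 genes it called 33 of 100 genes moved 2-fold, 100 of 100 moved 4-fold and 2 of 12031 unmoved. The moved genes were drawn only from genes above a minimum mean count, and all counts were simulated with a common dispersion. The rates were not split by count level, and they do not show the effect of errors of read assignment. They may therefore not hold for many members, whose mean count had a lower quartile of 34.7, below that minimum. Low counts limit precision. The biological coefficient of variation, the spread between libraries beyond counting error, was 0.147 over the genes tested. Python 3.11.15 with pandas 2.3.3 did the rest.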

Additional observations from a re-analysis of the deposited data

How the results depend on the processing

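The number of members, 129, was 194 at a minimum of 0.5 TPM and 466 with the deposited posterior mean TPM. That mean gives a level above 0 to most genes without assigned reads. Without 1 replicate the number of members lay between 140 and 156. Members at 1 TPM in each library of the second quantification, 39, stayed within 1.5 times of that under every alternative run, with 40 to 46 without 1 replicate. The median log2 ratio of second over first, -1.77, was -2.90 with the deposited values and -0.98 with a pseudocount of 1; without 1 replicate it lay between -2.15 and -1.53. It was -1.41 on counts with those under 3 set to 3 and -1.54 without the 10 varying members, both chosen after seeing the data. Members varying between libraries, 10, were 10 with DESeq2 size factors, 6 without the filter on low counts, 21 with a common dispersion and 4 to 6 without 1 replicate; the cause was not tested. Varying parents, 4, were 2 after adding the members' counts. Parents by sequence were found for 123 members at 90% identity. No paired analysis was possible because there is only 1 group.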
